A study of Mus musculus with 8 samples.

Results

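The T cells described here came from the lymph nodes (LN) of mice whose whole body received ionizing radiation (IR), set against those of mice that were not irradiated. These are 4 of the 8 arrays of the series, chosen by tissue label alone: 2 LN arrays after IR and 2 without IR. The mice were female C57BL/6, aged 6 to 8 weeks when MC38 cells, a mouse colon carcinoma line, were placed under the skin of the flank, so both LN groups came from tumor-bearing animals. The IR group had 5 Gy of whole body IR 5 h before the organs were taken. Each array held cells pooled from 4 mice, and 2 independent experiments each gave 1 sample per group. Inguinal and axillary nodes, draining and non-draining, were pooled and broken up mechanically, and cells were enriched for CD8 and then sorted as CD3+CD8+CD44+CD62L-, the surface phenotype of antigen-experienced T cells outside the central memory pool. The arrays read 18193 genes by 1 probe set each, and all of these genes are covered.

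IR breaks DNA. The breaks activate the ATM and CHK kinases, which stabilize p53, a transcription factor that normally is destroyed by MDM2. p53 then switches on genes that halt the cell cycle, repair DNA, curb p53 itself or start apoptosis, and lymphocytes are among the cells in which this last arm is known to be strong. CD8 T cells of the sorted phenotype also carry effector molecules such as granzymes, and their rapid responses run through the immediate early genes of the AP-1 family.

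At 5 h after IR, 143 genes had risen in LN T cells, which is 0.786% of those tested, and 48 had fallen, which is 0.264%. A gene was counted as changed at an adjusted p under 0.1 (limma, Benjamini-Hochberg) where its log2 fold change was also 1 or more in either direction. Together these were 191 genes, or 1.05%. Of the rises, 28 belonged to 3 lists of p53 target genes, 14 to another of the 23 pathway lists examined and 101 to none of them. The rises were larger than the falls: 36 rises and 3 falls reached a log2 change of 2, and the medians were 1.52 and -1.20.

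The sort markers were bright on all 4 LN arrays. Values are log2 intensities throughout, and 4 values in a sentence are LN no IR replicate 1 and 2, then LN IR replicate 1 and 2. *Cd8a*, which encodes CD8 alpha, was 12.57, 12.58, 12.48 and 12.27, *Cd3e*, which encodes CD3 epsilon, was 12.49, 12.59, 12.63 and 12.53, and *Cd44*, the sorted activation marker, was 11.56, 11.35, 11.65 and 11.62. None of them passed the test. Transcripts of other cells were measured too: *Ighm*, the heavy chain of B cell IgM, was 10.96, 11.76, 10.62 and 10.74, and *H2-Aa*, an MHC class II chain of antigen-presenting cells, was 10.93, 11.94, 11.66 and 11.36, where the lower quartile of an LN array lay between 5.45 and 5.59. No member of 10 marker lists for B cells, plasma cells, macrophages, dendritic cells, NK cells, neutrophils, CD4 T cells, naive T cells, red cells and stroma changed (limma, 0 of 111 members, 6 higher and 10 lower at an unadjusted p under 0.05, and 4 falls in a robust fit). Over all 18193 genes 926 were higher and 1678 lower at an unadjusted p under 0.05, which is the background for each such count of a list. The robust fit called 249 rises and 255 falls over all genes, which is the background for its counts. The mean of the B cell list was 7.45, 8.08, 7.67 and 7.75, and that of the dendritic cell list was 8.61, 9.24, 8.99 and 8.35. The part of such cells in the changes below was not tested, and in pooled sorted cells fewer cells of a type and less RNA per cell cannot be told apart.

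The LN arrays spread more than those of the tumor, and the LN IR pair spread the most. Over all genes the SD of the difference between the 2 arrays was 0.42 for LN no IR and 0.57 for LN IR, against 0.27 in each tumor group. In the LN IR pair 1553 genes differed by 1 or more on the log2 scale, and in the LN no IR pair 576. LN IR replicate 1 correlated at 0.982 and 0.977 with the unirradiated arrays and at 0.966 with LN IR replicate 2. The fit shared 1 estimate of the spread over all 8 arrays. Since the LN pairs spread more than the tumor pairs, its standard errors and p-values for LN will tend to be too small. With array weights, 0.850 for each LN no IR array and 0.372 for each LN IR array, 59 genes rose (0.324%) and 10 fell (0.055%), and all 69 were among the 191. A fit on the LN arrays alone called 0 genes with limma, with 1252 at an unadjusted p under 0.05 and a smallest adjusted p of 0.153. Leaving out single arrays gave 97 changed genes without LN no IR replicate 1, 69 without LN no IR replicate 2, 1789 without LN IR replicate 1, of which 1340 fell, and 259 without LN IR replicate 2, of which 220 rose. Without any single tumor array the count was 67 to 75.

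All 191 genes had both IR arrays beyond both unirradiated arrays. Over all genes, 21.8% had both IR arrays above and 19.5% both below, so this separation was common. The gap between the groups, from the nearest IR array to the nearest unirradiated one, ran from 0.65 to 4.69 among the changed genes. It was at least 1 for 100 rises and 19 falls, against 0.726% of all genes. Such a gap needs a log2 change of 1 or more, by which these genes were chosen, so it is no separate check. Against the unirradiated mean, 122 of the 143 rises and 27 of the 48 falls reached 1 on each IR array by itself. The replicates leaned in different ways: 80 rises were larger on LN IR replicate 1, while 40 of the 48 falls were deeper on LN IR replicate 2. Leaving out each of the 4 LN arrays in turn, 48 genes were called every time, 45 rises and 3 falls, and 19 of these rises were p53 list genes.

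**Figure D1:**
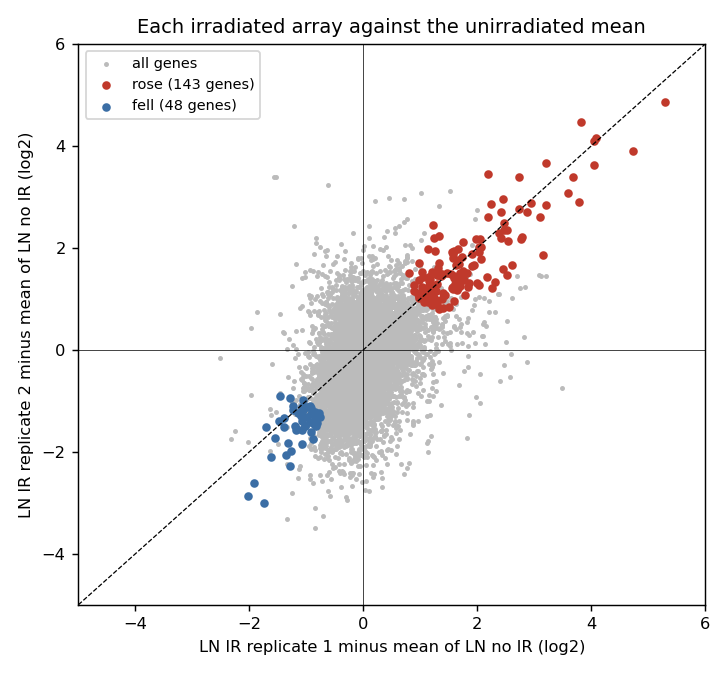
Log2 value of each gene on LN IR replicate 1 (horizontal axis) and LN IR replicate 2 (vertical axis), each minus the mean of the 2 LN no IR arrays, for 18193 genes. Red points are the 143 rises, blue points the 48 falls and grey points all genes, and the dashed line marks equal values. The rises lie along the line, and 40 of the 48 falls lie below it.

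The p53 list genes that halt the cycle or feed back on p53 carried many of the largest rises. Of 24 measured members 13 rose and none fell, with a median log2 change of 1.45, against 0.01 over all genes. *Phlda3*, which restrains AKT signaling, was 6.95, 6.68, 10.91 and 10.97, a log2 fold change of 4.12 ± 0.18 (SE) with an adjusted p of 0.00178. *Cdkn1a*, which encodes the cyclin-dependent kinase inhibitor p21, was 7.91, 7.89, 11.96 and 11.54, a rise of 3.84 ± 0.28 (adjusted p = 0.00392). For both genes the groups lay far apart and the arrays of a group close together. *Psrc1*, which binds spindle microtubules, was 6.95, 6.73, 10.51 and 10.24, and *Plk2*, a polo-like kinase, was 7.40, 6.96, 10.77 and 10.26. *Sesn2*, a stress-induced brake on mTORC1, went from 8.29 and 8.02 to 11.36 and 10.99.

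Genes that feed back on p53 were among the 13. *Mdm2*, the ubiquitin ligase that destroys p53, was 10.55, 10.24, 12.06 and 12.17, a rise of 1.72 ± 0.16 (adjusted p = 0.00883). *Ccng1*, cyclin G1, which directs a phosphatase to MDM2, was 11.73, 11.81, 13.24 and 13.28, and *Ppm1d*, the phosphatase WIP1 that switches the damage signal off, was 9.41, 9.48, 10.80 and 10.90. In each of these 3 genes the replicates lay within 0.32 of each other. *Zmat3*, an RNA-binding protein, rose by 2.44, *Pvt1*, a long noncoding RNA beside *Myc*, by 2.40, *Gtse1*, which moves p53 out of the nucleus, by 1.66, *Trp53inp1*, a p53 cofactor, by 1.18 and *Tob1*, an antiproliferative adaptor, by 1.09. Members that did not pass included *Gadd45a*, a damage-induced growth arrest gene, at 6.75, 5.27, 8.03 and 7.04, and *Btg2*, another antiproliferative gene, at 10.22, 11.39, 11.10 and 12.79, and in both the unirradiated arrays differed by more than 1.

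Promoters are shown for the 3 p53 list genes with the largest rises and for the gene with the largest fall, so that their sequences can be set beside the values. *Zfp365*, which helps repair DNA at stalled forks, was the second of these rises after *Phlda3*, at 6.31, 8.25, 11.32 and 11.38, with unirradiated arrays that lay 1.94 apart. Each window is the 250 bases before a RefSeq start in GRCm38.p6: *Phlda3* at chr1:135765835-135766084 on the plus strand, *Zfp365* at chr10:67912663-67912912 on the minus strand, *Cdkn1a* at chr17:29090729-29090978 on the plus strand, the first of its 2 starts, and *Dtx1* at chr5:120711670-120711919 on the minus strand. Capitals mark matches to the paired p53 response element, searched on both strands as 2 ten-base half-sites with a spacer of at most 13 bases and at most 2 of 20 letters off.
Phlda3: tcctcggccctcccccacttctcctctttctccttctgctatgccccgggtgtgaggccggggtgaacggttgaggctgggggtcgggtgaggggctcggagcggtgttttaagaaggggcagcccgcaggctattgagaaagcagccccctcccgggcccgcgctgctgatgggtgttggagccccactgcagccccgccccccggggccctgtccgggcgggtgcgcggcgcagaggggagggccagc
Zfp365: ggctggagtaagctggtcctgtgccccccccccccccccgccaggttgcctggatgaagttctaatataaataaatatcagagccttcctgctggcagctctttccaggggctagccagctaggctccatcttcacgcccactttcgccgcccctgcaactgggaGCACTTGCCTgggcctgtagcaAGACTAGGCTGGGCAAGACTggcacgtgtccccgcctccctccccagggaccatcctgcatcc
Cdkn1a: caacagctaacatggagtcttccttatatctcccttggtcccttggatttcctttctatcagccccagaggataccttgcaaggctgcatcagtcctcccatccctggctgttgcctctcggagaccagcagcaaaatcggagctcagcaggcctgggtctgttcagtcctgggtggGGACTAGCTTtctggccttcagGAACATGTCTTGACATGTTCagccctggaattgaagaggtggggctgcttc
Dtx1: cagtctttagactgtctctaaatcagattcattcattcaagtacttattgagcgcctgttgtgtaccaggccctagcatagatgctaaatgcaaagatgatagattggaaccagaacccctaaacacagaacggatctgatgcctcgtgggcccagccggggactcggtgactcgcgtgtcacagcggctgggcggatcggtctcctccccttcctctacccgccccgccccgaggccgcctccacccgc
In *Cdkn1a* the capitals spanned 73 to 32 bases before the start and held 2 paired matches that share the half-site GAACATGTCT. In *Zfp365* they spanned 85 to 44 bases before the start and also formed 2 overlapping pairs. The windows of *Phlda3* and *Dtx1* held no such match, and neither did the 250 bases before the other start of *Cdkn1a*, which are not printed.

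Over windows of 250 bases before to 50 after the start, a single p53 half-site was found in 8.60% of 14368 genes and a paired site in 4.57%. Among the rises with a window, 21 of 119 held a half-site (17.6%) and 10 a paired site (8.40%). The share was highest among the rises of the p53 lists, where 9 of 23 held a half-site (39.1%), among them *Mdm2*, *Ccng1*, *Aen* and *Polk*. Of the rises outside these lists 12 of 96 did (12.5%), including *1700007K13Rik* and *Celf5*, and of the falls 1 of 41 did. A CRE, the letters TGACGTCA that bind CREB and ATF factors, was in 2.94% of all windows and in 7 of the 119 windows of rises (5.88%), *Plk2* and *Ppp1r15a* among them. An E-box, CACGTG, the site of MYC partners, was in 10.3% of all windows and in 7 of 41 windows of falls (17.1%). An E2F site, TTTGGCGC or TTTCGCGC, was in 1.45% of all windows and in no window of the falls. These matches are descriptions of letters and do not show binding.

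Death genes of the p53 lists rose from both the mitochondrial and the receptor arm. Of 17 measured members 8 rose and none fell, with a median of 1.43. *Pmaip1*, which encodes the BH3-only protein NOXA, was 8.23, 7.56, 10.31 and 10.08, and *Bbc3*, which encodes PUMA, was 7.74, 8.57, 9.53 and 9.64. The PUMA arrays without IR lay 0.83 apart, and its rise of 1.43 had an adjusted p of 0.0817, while that of NOXA, 2.30, had 0.0118. *Apaf1*, the core of the apoptosome, rose from 9.52 and 9.14 to 11.30 and 11.51, and *Ei24*, a p53-induced membrane protein, from 10.19 and 10.14 to 12.21 and 12.34. *Aen*, an apoptosis-enhancing nuclease, rose by 1.57 and *Pidd1*, the scaffold that activates caspase 2, by 1.12.

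The death receptors *Fas* and *Tnfrsf10b*, the mouse TRAIL receptor, moved by near-equal amounts. *Fas* was 7.34, 7.58, 9.05 and 8.88, a log2 rise of 1.50, and *Tnfrsf10b* was 7.09, 7.35, 8.82 and 8.66, a rise of 1.52. Their ligands did not pass: *Fasl* was 8.87, 7.44, 8.58 and 7.48, and *Tnfsf10*, TRAIL, was 9.29, 9.11, 8.64 and 8.57. *Perp*, a desmosomal death effector, was 6.31, 5.76, 8.79 and 7.26, with both IR arrays higher but an adjusted p of 0.149.

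Beyond the p53 lists the BCL2 family gave 1 rise among 18 members. *Bcl2l11*, which encodes BIM, was 11.26, 11.22, 12.27 and 12.77, a rise of 1.28 (adjusted p = 0.055). The guardians *Bcl2* (10.66, 11.90, 11.22 and 12.09) and *Mcl1* (12.15, 12.03, 12.18 and 12.28) did not pass, and in *Bcl2* the replicates differed more than the groups did. No member of the list of caspases and caspase regulators changed (limma, 0 of 21, with 5 lower and 0 higher at an unadjusted p under 0.05 and 0 in the robust fit). That list leaves out *Apaf1* and *Pidd1*, which rose and were counted with the p53 death genes above. *Casp8*, the caspase that death receptors recruit, was 11.22, 11.45, 11.05 and 11.07.

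The p53 list of repair, nucleotide and metabolic genes was more divided. Of 26 members 7 rose and none fell, and the median was 0.57. *Zfp365*, shown above, had the largest rise of the list at 4.07. *Dcxr*, a xylulose reductase, went from 8.27 and 8.00 to 11.92 and 11.04, and *Slc19a2*, a thiamine transporter, from 7.50 and 7.65 to 10.31 and 10.96. *Polk*, a translesion DNA polymerase, was 8.31, 7.89, 10.34 and 10.96, a rise of 2.55, and *Dglucy*, which metabolizes D-glutamate, rose by 2.47. *Lpin1*, a phosphatidate phosphatase, rose by 1.89 and *Abhd4*, a lipid hydrolase, by 1.81. Members that did not pass included the excision repair genes *Ddb2* (9.89, 9.67, 10.08 and 9.52) and *Xpc* (7.81, 7.89, 7.71 and 6.89) and *Polh*, another translesion polymerase (9.97, 10.00, 9.30 and 8.29).

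Over the 3 p53 lists together 28 of 67 members rose, and the median was 1.02. In 42 members both IR arrays lay above both unirradiated ones and in 9 both below, against 21.8% and 19.5% of all genes. The medians were near-equal when each IR array was set against the unirradiated array of its own number, 1.06 for replicate 1 and 1.03 for replicate 2. Whether arrays of the same number form a pair is not given by the labels. With array weights 20 of the 28 were called, and with the LN arrays alone none. The list of general damage sensing and repair genes gave no change (limma, 0 of 62, with 2 higher and 13 lower at an unadjusted p under 0.05, and 1 fall in the robust fit). That list leaves out changed repair genes, among them *Zfp365* and *Polk* of the p53 lists (above), *Ung* and *Mgmt*. *Ung* is described with the falls, and *Mgmt*, which repairs alkylated DNA and was named after its values were seen, rose by 1.41. *Atm*, the kinase that senses double-strand breaks, was 10.83, 10.62, 10.49 and 10.13, and *Chek1*, a checkpoint kinase, was 9.40, 8.79, 8.62 and 7.59.

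**Figure D2:**
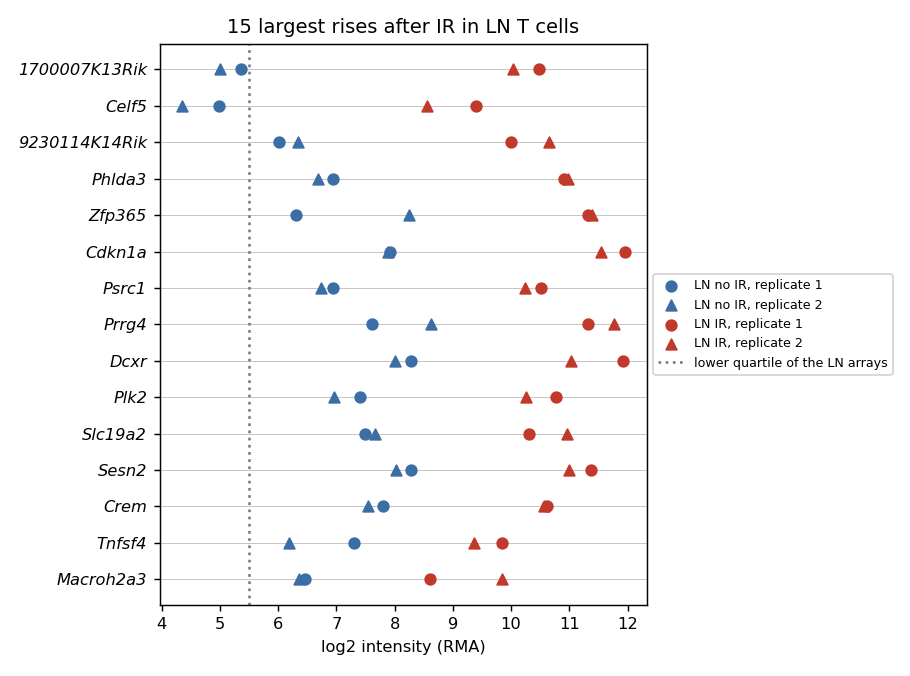
Log2 intensity of the 15 genes with the largest rises on each of the 4 LN arrays, with blue symbols for no IR, red symbols for IR, circles for replicate 1 and triangles for replicate 2. The dotted line is the mean lower quartile of the LN arrays (5.50). In all 15 genes both red symbols lie to the right of both blue ones, and *1700007K13Rik* and *Celf5* start left of the line.

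Several of the largest rises belonged to no list. The largest of all was *1700007K13Rik*, a transcript of unknown function, which was 5.35, 5.00, 10.47 and 10.04, a log2 change of 5.08 ± 0.32 (adjusted p = 0.00301). *Celf5*, an RNA-binding protein of the CELF family, was 4.99, 4.34, 9.39 and 8.56, and *9230114K14Rik*, a noncoding transcript, was 6.01, 6.33, 10.00 and 10.64. The first pair began under the lower quartile of the array, as did 6 other rises (*Mybl1*, *Sh3yl1*, *Rnf128*, *Acot1*, *Tmem35a* and *Dennd2c*), so their fold changes start from dim probe sets. *Prrg4*, a membrane protein with a Gla domain, was 7.61, 8.62, 11.33 and 11.78. *Macroh2a3*, named by the array as a macroH2A histone variant, was 6.46, 6.36, 8.60 and 9.85, and its probe set can also read related sequences.

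T cell surface and costimulatory molecules were among the rises. *Tnfsf4*, which encodes OX40 ligand, was 7.30, 6.18, 9.84 and 9.35, a rise of 2.86 (adjusted p = 0.0289). *Tnfrsf18*, which encodes the costimulatory receptor GITR, was 10.64, 10.65, 12.34 and 12.03 and was the only change among 24 inhibitory and costimulatory receptors. *Cd69*, an early activation antigen that holds T cells in tissue, was 10.91, 10.56, 11.79 and 11.77. In all of these the groups did not overlap, and *Tnfsf4* varied by 1.12 between unirradiated arrays. *Cd80*, a B7 ligand usually found on antigen-presenting cells and named after its values were seen, rose by 2.00 from 7.65 and 6.89 to 9.80 and 8.74.

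Immediate early and AP-1 genes were higher as a list, although few passed. Of 35 members 6 rose and none fell, 33 had a higher value after IR, against 9265 of all 18193 genes, and the median was 0.98. *Fosl2*, which encodes the AP-1 subunit FRA2, was 7.70, 7.28, 10.22 and 10.25, a rise of 2.74 ± 0.18 (adjusted p = 0.00301). *Fosb*, another AP-1 subunit, was 9.54, 9.48, 10.84 and 11.75, and *Atf3*, a stress-induced bZIP repressor, was 6.90, 6.40, 9.10 and 8.23. *Dusp5*, an ERK phosphatase, rose by 1.60, *Zfp36*, which destabilizes cytokine mRNAs, by 1.27 and *Per1*, a clock gene, by 1.02. *Fos* itself was 12.00, 10.98, 12.22 and 13.19, and *Jun* was 9.35, 10.19, 10.82 and 11.31, neither of which passed.

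*Crem*, which encodes a cAMP-responsive repressor, was in none of the lists. It was 7.80, 7.55, 10.62 and 10.56, a rise of 2.92 ± 0.19 (adjusted p = 0.00301). The gene has several probe sets, whose changes ran from -0.06 to 3.19, so not all of them read the rise. *Pde4d*, a cAMP phosphodiesterase named after its values were seen, rose by 1.21 and also had a probe set of opposite sign.

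Stress and inflammatory regulators gave scattered rises. Of 34 integrated and ER stress genes 4 rose and none fell, with a median of -0.11 that turned to 0.34 after scaling to T cell identity genes: *Sesn2* (above), *Eif2ak3*, which encodes the ER stress kinase PERK, from 8.08 and 7.69 to 10.06 and 9.31, *Ddit4*, an mTORC1 inhibitor, from 9.69 and 10.02 to 11.24 and 10.86, and *Ppp1r15a*, a phosphatase subunit that restores translation, from 9.62 and 9.76 to 11.09 and 10.50. The transcription factors *Atf4* (10.78, 10.05, 10.73 and 9.91), *Ddit3* (9.03, 9.02, 9.45 and 9.05) and *Xbp1* (10.33, 10.49, 9.81 and 9.91) of that arm did not pass. *Atf3*, another stress-induced factor, did rise and was counted with the AP-1 genes above. Of 22 NF-kB genes 2 rose, *Nfkbiz*, a nuclear inhibitor protein of the family (9.84, 8.87, 10.93 and 11.16), and *Icam1*, an adhesion molecule (10.22, 10.53, 11.34 and 11.47). *Nfkbia*, the classical NF-kB feedback inhibitor, was 13.48, 12.92, 13.80 and 13.55 and did not pass on this probe set. All 5 of its probe sets were higher after IR, with log2 changes from 0.48 to 1.13, and 1 of them was called.

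The 41 interferon-stimulated genes of the list, which leaves out *Ifitm1* (described with the falls), gave no call, with a median of 0.26 (limma, 0 of 41, with 3 higher and 3 lower at an unadjusted p under 0.05, and 1 rise in the robust fit). Heat shock genes gave none either (0 of 26, with 3 higher and 9 lower, and 1 rise and 1 fall in the robust fit). *Hspa1a*, an inducible HSP70, was 4.35, 4.04, 5.52 and 6.46, with both IR arrays higher and an adjusted p of 0.106. Antioxidant genes gave 0 of 27 (2 higher, 4 lower, 1 fall in the robust fit), and *Txn1*, thioredoxin, was 12.66, 12.56, 12.70 and 12.35. Of the 29 histone genes listed only 9 were measured, and none of these passed or had an unadjusted p under 0.05.

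**Figure D3:**
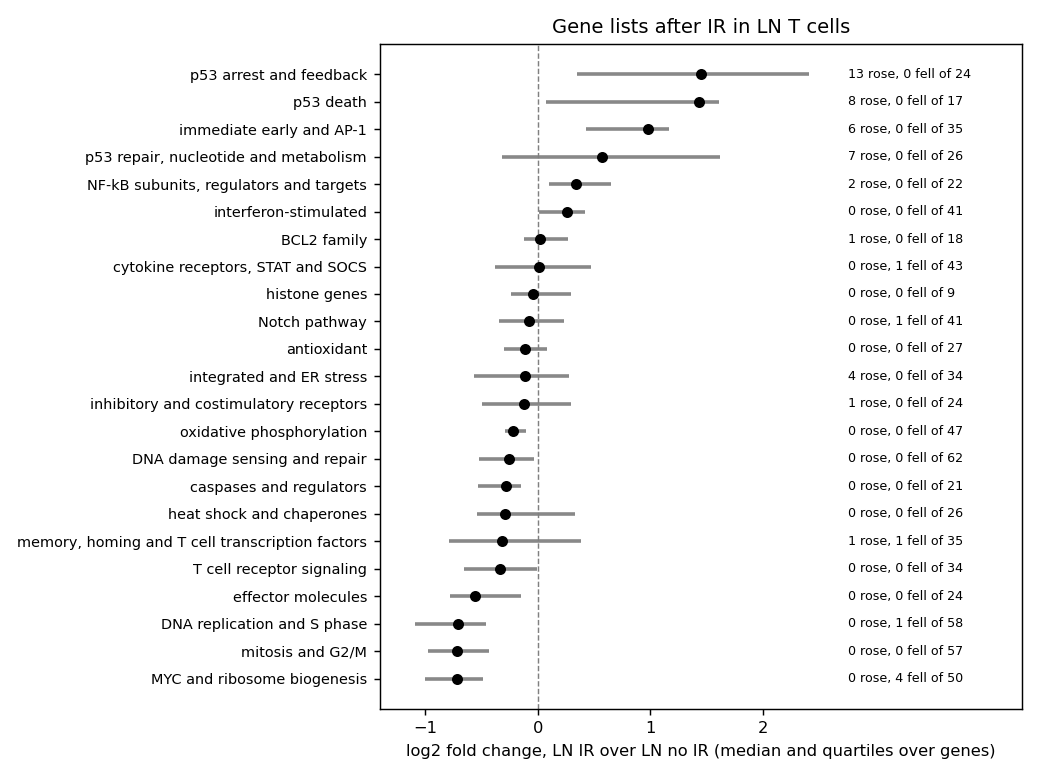
Median log2 fold change (point) and quartiles (grey bar) over the genes of each of the 23 pathway lists, LN IR over LN no IR, with the counts of genes that rose and fell out of those measured. The dashed line is the median of all genes (0.01). The p53 arrest and death lists lie highest at 1.45 and 1.43, followed by the immediate early list at 0.98, and the ribosome, mitosis and S phase lists lie lowest, between -0.71 and -0.70 on the deposited scale.

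The largest fall was that of *Dtx1*, which encodes Deltex1, a regulator of Notch signaling linked to T cell anergy. It was 10.05, 10.61, 8.32 and 7.47, a log2 change of -2.44 ± 0.31 (adjusted p = 0.0289). Both IR arrays lay well under both unirradiated ones, and the IR arrays differed by 0.84. The gene has 2 probe sets, and the other, at -0.27, was not called. *Dtx1* was the only one of 41 Notch pathway genes to change. *Notch1* was 10.29, 9.99, 10.54 and 9.59, and the groups overlapped.

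Genes of ribosome production were lower as a list, and some of them fell. Of 50 MYC and ribosome biogenesis genes 4 fell and none rose, and 44 had a lower value, against 8928 of all 18193 genes. In 38 of the 50 both IR arrays lay below both unirradiated ones, against 19.5% of all genes. The median was -0.71 on the deposited scale and -0.26 after scaling to T cell identity genes, where 2 members fell and 1 rose, and with array weights 2 fell. *Gnl3*, which encodes nucleostemin, was 10.26, 9.82, 8.68 and 7.97, a log2 change of -1.71 (adjusted p = 0.063). *Polr1b*, a core subunit of RNA polymerase I, was 9.34, 9.45, 8.07 and 7.57, and *Pprc1*, a coactivator of the PGC1 family, was 8.95, 8.98, 7.76 and 7.48. *Tsr1*, a small ribosomal subunit assembly factor, was 10.73, 10.46, 9.52 and 9.03. In all of these LN IR replicate 2 was the lowest array. *Myc* was 9.73, 9.85, 9.31 and 7.87, and its change of -1.20 did not pass (adjusted p = 0.258). *Npm1*, which encodes the nucleolar protein nucleophosmin, was 13.40, 13.33, 13.44 and 13.44.

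Of the 48 falls 40 were in no pathway list. Those named here were picked after their values were seen and were not tested as a group, except *Urb2*, which is among the largest falls. *Urb2*, a ribosome biogenesis protein, was 9.16, 9.36, 7.99 and 7.28. *Wdr75*, a subunit of the small subunit processome, fell by 1.08, *Exosc7*, an RNA exosome subunit, by 1.17 and *Trmt61a*, a tRNA methyltransferase, by 1.08. Of the genes that act in mitochondria, *Timm8a1*, an import chaperone, fell from 10.54 and 10.52 to 9.37 and 8.98, its relative *Timm10* from 9.23 and 9.70 to 8.38 and 8.34, and *Fastkd5*, which processes mitochondrial RNA, from 8.19 and 8.11 to 7.05 and 6.85. The list of respiratory chain genes gave no change (limma, 0 of 47, median -0.22 and 0.23 after scaling to T cell identity genes, with 6 lower and 0 higher at an unadjusted p under 0.05 and 0 in the robust fit). That list leaves out *Cox6b2*, a cytochrome c oxidase subunit named after its values were seen. *Cox6b2* rose by 2.33, from 6.71 and 6.80 to 9.13 and 9.05.

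**Figure D4:**
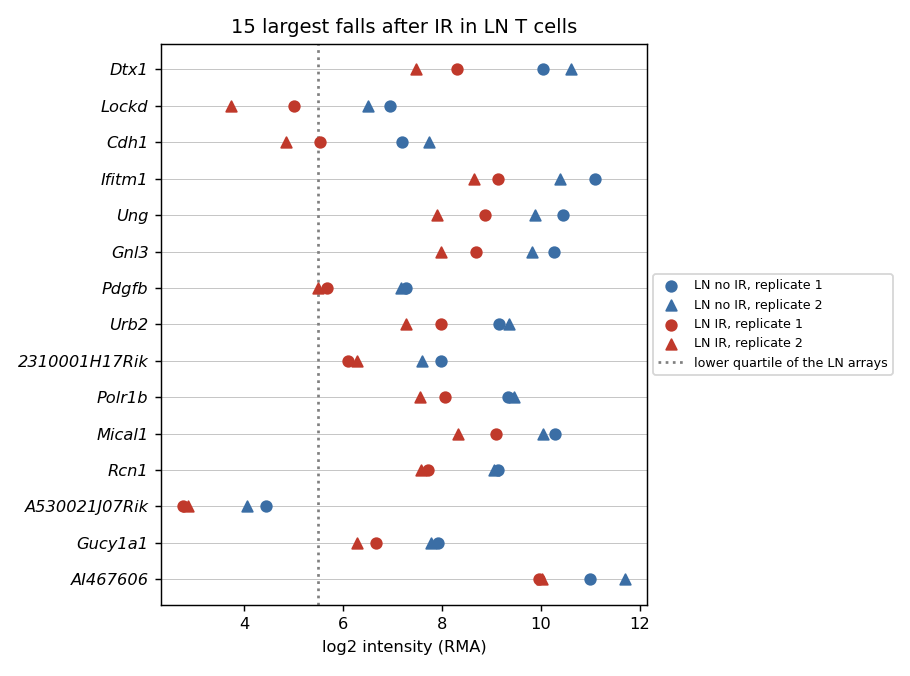
Log2 intensity of the 15 genes with the largest falls on each of the 4 LN arrays, with symbols and dotted line (5.50) as in the plot of the largest rises. In all 15 genes both red symbols lie to the left of both blue ones. *Lockd* and *Cdh1* have IR means left of the line, and *A530021J07Rik* lies left of it in both groups.

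The remaining large falls had little in common by name. *Ung*, the uracil glycosylase of base excision repair, was 10.45, 9.88, 8.88 and 7.89, and *Ifitm1*, an interferon-inducible membrane protein, was 11.10, 10.39, 9.13 and 8.65. *Cdh1*, E-cadherin, was 7.19, 7.74, 5.54 and 4.86, and *Lockd*, a noncoding RNA downstream of *Cdkn1b*, was 6.96, 6.52, 5.00 and 3.74. *Cdh1*, *Lockd* and *A530021J07Rik*, an unnamed transcript (4.44, 4.06, 2.77 and 2.86), had IR means under the lower quartile of the array. *Pdgfb*, a growth factor chain, was 7.28, 7.18, 5.68 and 5.50 and *Rcn1*, an ER calcium-binding protein, was 9.13, 9.06, 7.71 and 7.58, with the arrays of each group within 0.19 of each other. With *A530021J07Rik* they were the 3 falls called without any 1 of the LN arrays. *Rcn1* also had a probe set near no change (0.03). *Mical1*, an actin-oxidizing enzyme, fell by 1.46, *Gucy1a1*, a subunit of soluble guanylate cyclase, by 1.37 and *AI467606*, an expressed sequence, by 1.36. *2310001H17Rik*, a noncoding transcript, fell by 1.60.

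T cell differentiation genes showed few calls. Of 35 memory, homing and transcription factor genes 1 rose, *Cd69*, and 1 fell, *Tbx21*, which encodes T-bet, the driver of effector programs, at 9.90, 9.70, 8.96 and 8.40 (adjusted p = 0.0971). *Eomes*, the T-box relative of T-bet, was 9.93, 10.60, 9.42 and 9.07, and *Id3*, a regulator of memory T cells, was 8.72, 9.45, 8.01 and 7.90, neither of which passed. *Il7r*, the receptor for the survival cytokine IL-7, was 12.38, 12.69, 12.57 and 13.02. Among 43 cytokine receptor and signaling genes 1 changed, *Il18rap*, a chain of the IL-18 receptor, which was 9.21, 9.29, 8.20 and 8.27, a log2 change of -1.02 ± 0.13 (adjusted p = 0.0289). *Crtam*, an adhesion molecule of activated CD8 T cells, fell by 1.10 and *Lax1*, a membrane adaptor of lymphocytes, by 1.11, both named after their values were seen.

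Effector molecules gave no call (limma, 0 of 24, median -0.55 and -0.10 after scaling to T cell identity genes, with 1 higher and 10 lower at an unadjusted p under 0.05, and 3 falls in the robust fit). *Gzma*, granzyme A, had the widest difference, 11.19, 11.69, 10.10 and 8.12, a log2 change of -2.33, and did not pass (limma, adjusted p = 0.289). Its LN IR arrays differed by 1.98. Its tumor arrays, which enter the shared estimate of the spread, also lay apart, at 9.63 and 10.60 without IR and 8.52 and 10.80 with IR. *Gzmb*, granzyme B, was 10.79, 10.57, 10.48 and 9.07. *Ifng* was 11.03, 8.68, 10.73 and 8.38: the replicate 1 arrays of both groups were high and the replicate 2 arrays low, and within a number IR and no IR were 0.30 apart. T cell receptor signaling genes gave none either (0 of 34, median -0.33 and 0.12 after that scaling, with 4 higher and 10 lower at an unadjusted p under 0.05, and 3 falls in the robust fit).

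Cell cycle genes had lower values after IR within each replicate number, and also differed between the numbers. No label ties a number to an experiment, so arrays of the same number may not be pairs. Of 58 DNA replication and S phase genes 56 had a lower value, against 8928 of all 18193 genes. Only 1 of the 58, *Ung*, fell (limma, with 17 lower and 0 higher at an unadjusted p under 0.05, and 9 falls in the robust fit). The list's mean was 9.95 and 9.45 without IR and 9.46 and 8.40 with IR, so LN no IR replicate 2 and LN IR replicate 1 were level, and the median difference within a number was -0.42 for replicate 1 and -0.97 for replicate 2. *Cdc6*, a licensing factor, was 9.11, 7.99, 7.97 and 5.68, while *Pcna*, the replication clamp, was 12.78, 12.70, 12.51 and 12.27. For 57 mitosis and G2/M genes the mean was 9.73, 8.85, 9.38 and 7.80, the median difference within a number was -0.29 and -1.004, and none changed (limma, with 4 lower and 0 higher at an unadjusted p under 0.05, and 6 falls in the robust fit). The mitosis list leaves out *Psrc1*, *Plk2* and *Gtse1*, which rose and were counted with the p53 genes above. *Mki67*, the proliferation antigen Ki-67, was 11.89, 7.92, 11.10 and 8.21, high on both replicate 1 arrays and low on both replicate 2 arrays. The median of the S phase list was -0.70 on the deposited scale and -0.25 after scaling to T cell identity genes, and that of the mitosis list -0.71 and -0.26.

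**Figure D5:**
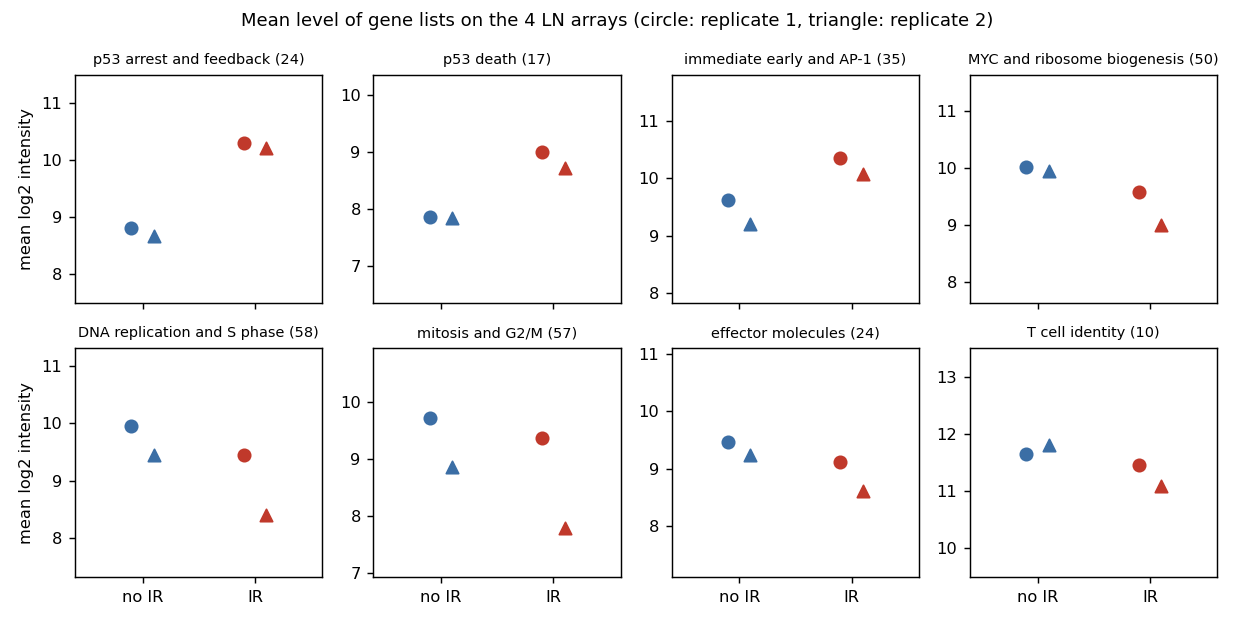
Mean log2 intensity of 8 gene lists on the 4 LN arrays, with the number of genes in brackets, blue for no IR, red for IR, circles for replicate 1 and triangles for replicate 2. Each panel spans the same range of log2 units. The p53 arrest list separates the groups (8.81 and 8.66 against 10.30 and 10.21), while in the mitosis list both replicate 1 arrays (9.73 without and 9.38 with IR) lie above both replicate 2 arrays (8.85 and 7.80).

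The level of T cell transcripts itself was lower on both LN IR arrays, and lowest on replicate 2. The mean of 10 T cell identity genes was 11.64, 11.80, 11.45 and 11.08. In 7 of them both IR arrays lay below both unirradiated ones, against 19.5% of all genes. None of them changed (limma, 0 of 10, with 3 lower and 0 higher at an unadjusted p under 0.05, and 1 fall in the robust fit). Scaling the arrays to these genes raised the median change of all genes from 0.01 to 0.46 and the share of rises among changed genes from 74.9% to 97.6%, with cyclic loess at 82.8%. All 143 rises were called on that scale too, and 12 of the 48 falls. The falls are therefore stated relative to the whole array.

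The same IR was given to mice whose tumor T cells were read on the other 4 arrays, where 18 genes changed (0.0989%), 17 up (0.0934%) and 1 down (0.0055%). Of the 191 LN genes, 15 rises and 1 fall, *Pprc1*, were also called in the tumor, and 179 had the same sign there. The log2 rise of *Ccng1* was 1.50 in LN and 1.49 in the tumor, that of *Celf5* 4.31 and 4.63, and that of *Glipr1*, a p53-inducible secreted protein named after its values were seen, 1.77 and 1.54. Other genes had unlike values: the log2 change was 2.92 in LN and 0.20 in tumor for *Crem*, 2.74 and 0.64 for *Fosl2*, 1.54 and 0.22 for *Tnfrsf18* and 2.47 and 0.30 for *Dglucy*. The difference between tissues did not pass for any gene (limma, 0 at an adjusted p under 0.1, smallest 0.249, with 1024 at an unadjusted p under 0.05, 117 of them among the 191, and 18 genes in the robust fit). Without LN IR replicate 1 it passed for 1092 genes and without LN IR replicate 2 for 2. The tumors were digested with enzymes and the LN were not, and tissue and handling cannot be told apart.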

How the data were processed

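RNA of sorted T cells was read on 8 Affymetrix mouse arrays in 4 groups of 2, of which the 4 LN arrays are described here. The authors processed the scans with RMA, which corrects background, gives all arrays 1 distribution and combines the probes of a set, and deposited log2 intensities for 45101 probe sets. Because RMA equalises the distributions, a change shared by most genes is not seen. Its release was not given in the sources used here. With so few arrays, precision is low.

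Of the probe sets, 34945 named 1 gene, 932 several and 9160 none, and 64 were controls. By Entrez ID 34741 of the 34945 matched RefSeq (GRCm38.p6). A gene was read by its probe set with the highest mean over the 8 arrays among those naming it alone. limma 3.58.1 (R 4.3.3) fitted 4 group means by least squares over 35877 annotated probe sets with empirical Bayes, and p-values were adjusted by Benjamini-Hochberg over all of them. The paper fitted the arrays robustly and also used SAM. Here the robust fit was run as an alternative, and SAM was not run. The scripts were tested on simulated data. Alternatives were the robust fit, LN arrays alone, the replicate number as a block, array weights, a mean-variance trend, other thresholds, the most variable probe set, leaving out the dimmer 50% of probe sets, cyclic loess, a shift of each array to equal T cell identity genes, and leaving out each array.

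The genes, the 23 pathway and 11 marker lists (953 genes, 84 of them without a probe set named here) and the tests were chosen with earlier results of these data known. Genes named were the 15 largest rises and falls, all changed p53 list members, up to 4 changed members of each other list, sort checks, the brightest marker of each other cell type and defining genes of lists; any other is given as named after its values were seen or to show list members that did not pass. Promoters came from RefSeq windows, which 14368 genes and 160 of the changed genes had. Each array is a pool of 4 mice, so the spread between arrays is between pools.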

Additional observations from a re-analysis of the deposited data

Results flagged for a closer look

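Outside the genes described above, 44 of the 9160 probe sets that name no gene passed the same test in LN T cells (0.48%), 36 higher and 8 lower after IR. The largest of these differences was a log2 change of 4.93, from 5.97 and 6.07 without IR to 11.16 and 10.75 with IR, and the next was 3.99, from 5.03 and 6.34 to 9.35 and 9.99. These probe sets stand apart only in that no gene is named for them here, and their sequences were not analysed here.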

How the results depend on the processing

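Only 2 arrays per LN group and their unequal spread limit these results, and RMA values carry no count of molecules. Against 191 changed genes (143 rises, 48 falls, 28 of the p53 lists), the robust fit gave 504 (249 and 255) and 18 genes that differed between tissues; LN arrays alone gave 0 (0 and 0, p53 lists 0); array weights gave 69 (59 and 10); a mean-variance trend left 31 falls and 1 gene that differed between tissues; an adjusted p under 0.05 gave 100 (84 and 16); no fold limit gave 93 falls; the most variable probe set gave 73 falls; scaling to T cell identity genes gave 585 (571 and 14); and counting all probe sets gave 385. Leaving out 1 array gave 67 to 1789 changed genes, 60 to 449 rises, 6 to 1340 falls, 20 to 38 p53 list genes and 0 to 1092 genes that differed between tissues, the highest of each without LN IR replicate 1. With a lone array in a group, its spread is assumed to be that of the others. The cause of these shifts was not tested.

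The replicate number as a block gave 159 genes (122 rises, 37 falls), 151 of them among the 191, and 28 p53 list genes. Deviations of same-numbered arrays correlated at 0.43 between the LN groups, at 0.43 between the tumor groups and between -0.14 and 0.07 across tissues. No label ties a number to an experiment, so pairing was kept as an alternative.

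Of 1607 combinations of a named gene and an alternative, 1231 kept their direction and side of the threshold, 330 no longer passed, 11 newly passed and 35 turned direction, all of the last in genes that had not passed. Scaling to T cell identity genes turned *Atm* (0.037), *Casp8* (0.17), *Cd8a* (0.25), *Ctss* (0.33), *Ifng* (0.15), *Mki67* (0.20), *Notch1* (0.37), *Pcna* (0.10), *Pecam1* (0.43) and *Txn1* (0.36). Cyclic loess turned *Notch1* (0.14), *Pecam1* (0.19) and *Txn1* (0.014). The most variable probe set turned *H2-Aa* (-0.10), *Ighm* (2.45) and *Mcl1* (-0.087). Leaving out 1 array in turn gave ranges that crossed 0 for *Bcl2* (-0.25 to 0.997), *Cd3e* (-0.011 to 0.093), *H2-Aa* (-0.43 to 0.58), *Ifng* (-1.48 to 0.88), *Ikzf2* (-0.30 to 0.48), *Itga2b* (-0.067 to 0.17), *Mki67* (-2.24 to 1.74), *Notch1* (-0.55 to 0.40), *Pecam1* (-0.30 to 0.26) and *Txn1* (-0.27 to 0.087).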
